A study of Arabidopsis thaliana with 12 samples.

Results

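The seedlings compared here carry a mutation in either GUN1 or FUG1, and the 3 fug1 libraries were set directly against the 3 gun1 libraries. These are 6 of the 12 RNA-seq libraries of the series, chosen by genotype label alone, and no wild-type library enters. All 36917 gene IDs of the count tables were considered. The comparison asks which transcripts separate the single mutants from each other. Words such as rose and fell mean higher or lower in fug1 than in gun1. Which mutant departs from the wild type cannot be told from these libraries.

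The study concerns the relation of GUN1 to FUG1 in plastid protein homeostasis in Arabidopsis thaliana. The gun1 seedlings carry the allele gun1-103 (SAIL_742_A11) and the fug1 seedlings the allele fug1-3 (SAIL_209_E08). How many insertions each line carries was not analysed here. Both groups were whole seedlings 4 d old, kept for 2 d at 4 °C in the dark and then grown at 22 °C in long days (16 h light and 8 h dark, white light of 100 µmol m-2 s-1), on medium with 1% sucrose. Whether the replicates were grown as separate cultures is not stated in the labels, and p-values therefore describe the spread among these 6 libraries, which may be technical.

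GUN1, a pentatricopeptide repeat protein located in plastids, acts in retrograde signalling, by which plastids influence nuclear transcription. FUG1 is a plastid translation initiation factor of the IF2 kind and is needed for protein synthesis on plastid ribosomes. Plastid genes are read by a plastid-encoded polymerase, whose core subunits come from the rpo genes, and by a nuclear-encoded polymerase of the phage kind. The nuclear-encoded enzyme reads housekeeping genes such as rpoB and accD, and the plastid-encoded enzyme reads most photosynthesis genes.

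The mutated genes were measured first. GUN1 (AT2G31400, chromosome 2 from 13386954 to 13390854, minus strand, TAIR10.1) stood at 9.41, 9.82 and 7.64 CPM in gun1 1, 2 and 3 and at 33, 29.7 and 25.4 CPM in fug1 1, 2 and 3, where CPM are counts relative to the scaled library size. Every fug1 library was above every gun1 library. The log2 fold change, fug1 minus gun1, was 1.71 ± 0.19 (SE; edgeR quasi-likelihood test, Benjamini-Hochberg adjusted p = 6.83e-05), and the gene was called under all 18 alternative settings in which it was tested (adjusted p up to 0.00551). FUG1 (AT1G17220, chromosome 1 from 5885007 to 5890500) had 492, 207 and 181 counts in gun1 and 42, 94 and 96 in fug1. Its groups did not overlap either, but gun1 1 was far above the other gun1 libraries. Its log2 fold change of -1.34 ± 0.37 did not pass (edgeR adjusted p = 0.437). It passed in DESeq2 (adjusted p = 0.00793), with library totals as scaling (0.0172), without a filter (1.75e-07), with the root hair level as covariate (0.00127) and without gun1 3 (0.0275), with log2 fold changes of -0.98 to -1.92. The labels do not give the insertion sites, so where the counted reads lie relative to the insertions was not analysed here.

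Of 12893 genes tested, 24 were higher and 3 lower in fug1 at an adjusted p under 0.05 (edgeR), which is 0.209% of the genes tested (0.186% higher and 0.0233% lower). At an unadjusted p under 0.05 there were 520 higher and 577 lower genes. The groups did not overlap in 869 genes that were higher and 949 that were lower in fug1, together 14.1% of the genes tested. The median log2 fold change over all genes was -0.011. Of the 27 called genes, 16 lie on the plastid genome and all 16 were higher in fug1. The other 11 are nuclear, 8 of them higher and 3 lower. None of the 49 mitochondrion-encoded genes tested was called by edgeR, DESeq2 or limma-voom, and 12 had an unadjusted p under 0.05 (edgeR).

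**Figure D1:**
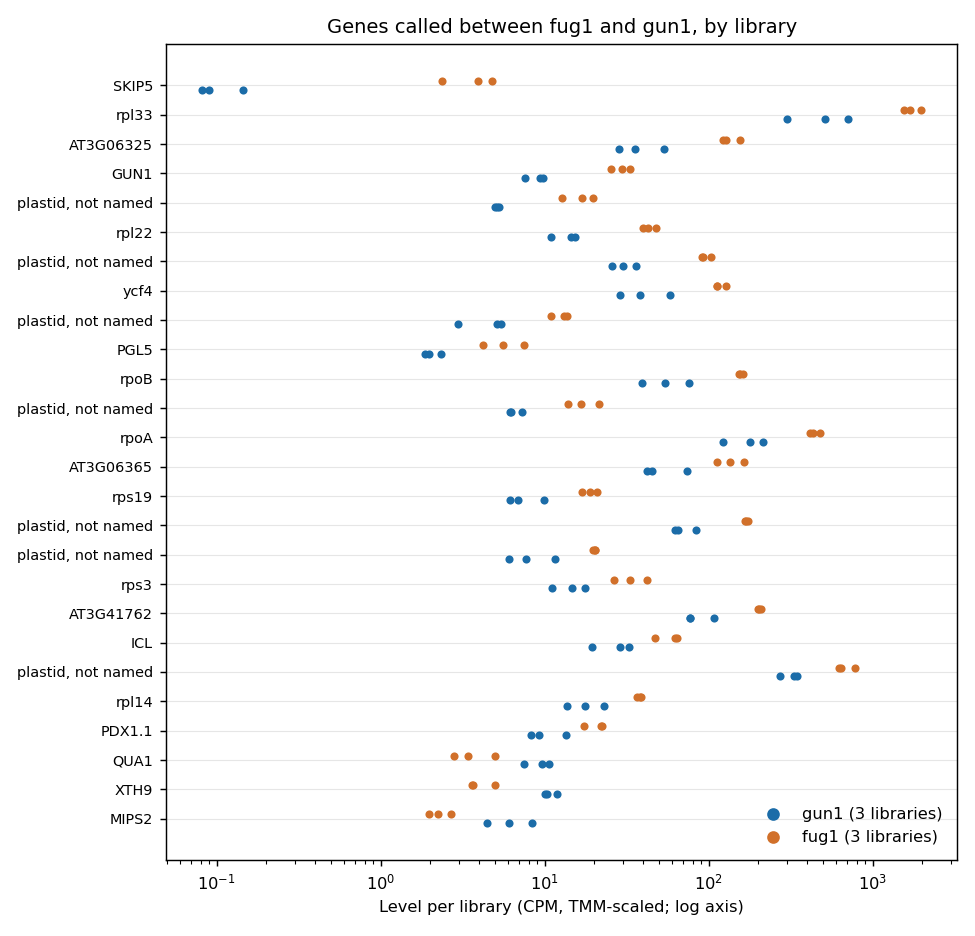
Level of 26 of the 27 called genes in the 3 gun1 libraries (blue) and the 3 fug1 libraries (orange), in TMM-scaled CPM on a log axis. The groups are apart in every row, but the genes were picked as called in these same libraries. The 3 genes at the bottom, QUA1, XTH9 and MIPS2, are the ones lower in fug1, and all others are higher.

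The libraries held 9216438 to 11327995 counts, and 14502 to 16417 gene IDs had no count. Replicates of a genotype correlated at 0.93 to 0.96 on the log2 scale (across genes, which are not independent replicates) and differed beyond sampling noise, so none was counted as a repeat of another. Scaling mattered here. The TMM factors were 1.09 to 1.3 in gun1 and 0.772 to 0.886 in fug1, and with library totals alone the median log2 fold change over all genes was -0.59, with 20 genes called higher and 3283 lower. Every fold change in the text is relative to a median near 0, and under library totals the same values lie lower by about this shift.

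Plastid-encoded genes took a larger share of all counts in fug1 than in gun1. The share was 75.2%, 76.7% and 75% in gun1 1, 2 and 3 and 82%, 84.4% and 81.7% in fug1 1, 2 and 3. The lowest fug1 library was above the highest gun1 library. The means were 75.6% ± 0.904 and 82.7% ± 1.49 (SD, n = 3), a difference of 7.08 points with a two-sided exact permutation p of 0.1, the smallest that 3 against 3 libraries can give. psbA, which encodes the D1 protein of photosystem II, alone took 36.5%, 45% and 47.6% of counts in gun1 and 51.3%, 49.4% and 50.9% in fug1. With psbA left out of all counts, the plastid share was 57% ± 4.37 in gun1 and 65% ± 3.64 in fug1, a difference of 8.04 points. In whole seedlings, fewer cells of a type and less RNA per cell cannot be told apart.

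Mitochondrion-encoded genes took 0.561% ± 0.0594 of counts in gun1 and 0.473% ± 0.0227 in fug1 (two-sided exact permutation p = 0.1, n = 3 per group). On the scaled levels their median log2 fold change was 0.19. The share of counts and the scaled level therefore had opposite signs for the mitochondrial genes.

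**Figure D2:**
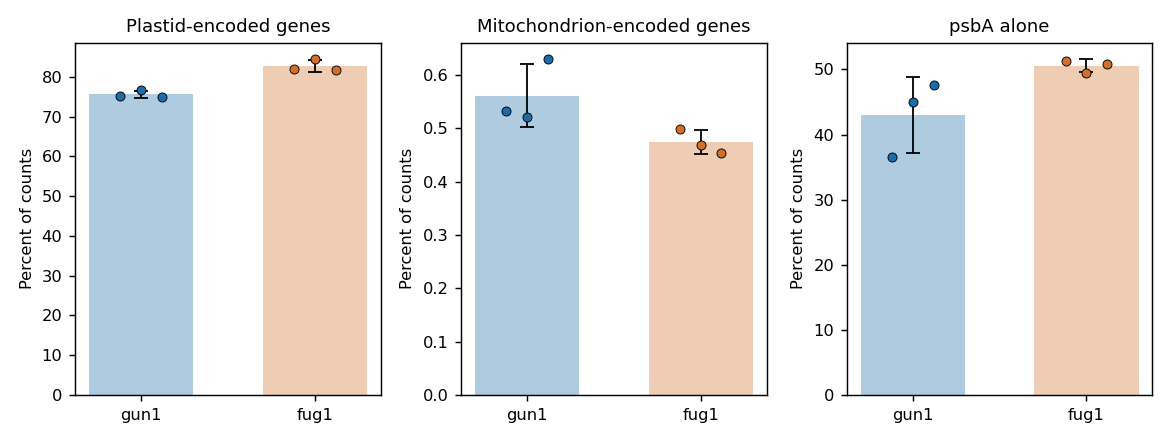
Percent of each library's counts in plastid-encoded genes, in mitochondrion-encoded genes and in psbA alone. Points are libraries, bars are means and error bars are SD (n = 3). The fug1 libraries lie above the gun1 libraries in the plastid panel (81.7% to 84.4% against 75% to 76.7%) and in the psbA panel, and below them in the mitochondrial panel.

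Genes for the plastid's own ribosomal proteins had the highest median among the plastid-encoded groups. Of 17 tested genes for plastid-encoded ribosomal proteins (20 listed), 6 rose and none fell in fug1, with a median log2 fold change of 1.22 against 0.67 over the 95 plastid genes tested and -0.011 over all genes. Of 7 tested genes in the list read by the nuclear-encoded polymerase (8 listed), 2 rose and all 7 had positive values of 0.46 to 1.46. That list holds rpo genes beside accD, clpP and ycf1. Its median was 0.72, close to the 0.67 of all plastid genes tested. With library totals as scaling the medians of the 2 groups stayed positive, at 0.63 and 0.13, beside 0.08 over all plastid genes tested.

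rpl33, for a protein of the large ribosomal subunit, stood at 704, 515 and 299 CPM in gun1 and at 1695, 1982 and 1558 CPM in fug1. The lowest fug1 library was above the highest gun1 library. Its log2 fold change was 1.79 ± 0.28 (edgeR adjusted p = 0.00311), the largest among the named plastid genes that were called. rpl22, also of the large subunit, rose from 15.4, 14.5 and 11 CPM to 47.6, 42.6 and 40 CPM, a log2 fold change of 1.67 ± 0.19 (edgeR adjusted p = 6.83e-05). rpl22 kept its call whichever library was left out. The calls of rpl33 ended without gun1 2 (adjusted p = 0.118) and without fug1 2 (0.0702).

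The small-subunit genes rps19 and rps3 rose by 1.3 ± 0.20 and 1.22 ± 0.21 on the log2 scale, and the large-subunit gene rpl14 by 1.06 ± 0.19 (edgeR adjusted p = 0.00271, 0.0073 and 0.014). rpl14, chosen after its values were seen, went from 18.1 ± 4.66 CPM in gun1 to 37.7 ± 1.02 CPM in fug1 (SD, n = 3). Leaving out fug1 2 ended all 3 calls, at adjusted p of 0.0616, 0.0891 and 0.116. Leaving out gun1 2 ended those of rps19 (0.0931), rps3 (0.151) and rpl14 (0.204), leaving out fug1 1 those of rps3 (0.109) and rpl14 (0.106), and leaving out fug1 3 that of rpl14 (0.143). The call of rpl14 also ended with library totals as scaling (0.0912). rps3 and rpl22 share a few bases at their ends, so a read there cannot be told apart.

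Larger values that did not pass were also found among the ribosomal protein genes. rps16 had 22.1, 10.9 and 9.75 CPM in gun1 and 34.8, 94.3 and 84.5 CPM in fug1, with a log2 fold change of 2.32 ± 0.51 (edgeR adjusted p = 0.408). The groups did not overlap, but fug1 1 stood closer to gun1 1 than to the other fug1 libraries. rps18 had 51.6, 21.1 and 18.4 CPM against 57.8, 119 and 99.6 CPM, at 1.6 ± 0.50 (adjusted p = 0.496). Against the rest of the group, rps2, rps14 and rpl32 had negative values of -0.27 ± 0.50, -0.36 ± 0.40 and -0.38 ± 0.67, none of which passed.

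Core subunits of the plastid-encoded polymerase were among the called genes. rpoB, for the beta subunit, stood at 76.2, 54.5 and 39.3 CPM in gun1 and at 152, 161 and 156 CPM in fug1. The fug1 libraries were close together, and the lowest lay above all of gun1. The log2 fold change was 1.46 ± 0.22 (edgeR adjusted p = 0.00223). rpoA, for the alpha subunit, rose from 213, 178 and 123 CPM to 435, 478 and 416 CPM, at 1.37 ± 0.23 (edgeR adjusted p = 0.00441). rpoC1 and rpoC2, for the other core subunits, had 0.72 ± 0.27 and 0.69 ± 0.23 and were not called (adjusted p = 0.486 and 0.448). accD, for a subunit of the plastid acetyl-CoA carboxylase, had 0.68 ± 0.30, and clpP, for a catalytic subunit of the Clp protease, 0.46 ± 0.25. The call of rpoB ended without gun1 2 (adjusted p = 0.0854) and without fug1 2 (0.0571), and that of rpoA without gun1 2 (0.123), fug1 1 (0.0589), fug1 2 (0.0944) and fug1 3 (0.0621).

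ycf4, an assembly factor of photosystem I, was the 1 called gene among the plastid photosynthesis groups. It stood at 58.1, 38.1 and 28.9 CPM in gun1 and at 113, 127 and 113 CPM in fug1, so that the groups were apart. The log2 fold change was 1.5 ± 0.23 (edgeR adjusted p = 0.00223), and the call ended without gun1 2 (0.0931) and without fug1 2 (0.0571). The structural subunits of photosystem I did not follow one direction, with psaC at 0.76 ± 0.26 and psaJ at 0.67 ± 0.25, and psaA and psaB, for the reaction centre proteins, at -0.37 ± 0.39 and -0.38 ± 0.45. None of these passed.

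No gene of photosystem II, the cytochrome b6f complex, the ATP synthase, rbcL or the NDH complex was called by edgeR or limma-voom, while DESeq2 called 4 photosystem II genes and 3 of the cytochrome b6f, ATP synthase and rbcL group, all higher in fug1. Of 15 photosystem II genes, 13 had positive values, 5 of them at an unadjusted p under 0.05 (edgeR), and the median was 0.54. psbA stood at 282055, 413545 and 371965 CPM in gun1 and 665753, 619230 and 575967 CPM in fug1, with a log2 fold change of 0.80 ± 0.30 (edgeR adjusted p = 0.486). The groups were apart although the gene was not called. psbC and psbB, for the inner antenna proteins, had 0.83 ± 0.27 and 0.73 ± 0.27. The median was 0.24 over 13 genes of cytochrome b6f, ATP synthase and rbcL, 4 of them at an unadjusted p under 0.05 (edgeR), with petD at 0.94 ± 0.26 and rbcL, for the large subunit of Rubisco, at 0.57 ± 0.29. It was 0.17 over 10 genes of the NDH complex, a plastid NADH dehydrogenase-like complex of cyclic electron flow, 2 of them at an unadjusted p under 0.05, with ndhC at 0.55 ± 0.24. With library totals as scaling, the medians of photosystem II, photosystem I, the cytochrome b6f, ATP synthase and rbcL group, and the NDH complex turned to -0.05, -0.01, -0.34 and -0.43.

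The remaining 7 called plastid IDs are given no names here, since the annotation used does not list them by ID. They were placed in none of the plastid gene groups above, and what they encode is not given here. The counts and medians of those groups leave them out, even if any of them belongs there. Among them ATCG00320 and ATCG00240 had the largest values, 1.69 ± 0.21 and 1.65 ± 0.19 (edgeR adjusted p = 0.000175 and 7.1e-05). All 7 were higher in fug1, by 1.1 to 1.69 on the log2 scale.

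Over the 95 plastid genes tested, 79 had positive values and 49 had an unadjusted p under 0.05 (edgeR). The median was 0.67, and it was 0.93 without gun1 1 and 0.46 without gun1 3. The number of plastid genes called was 37 without gun1 1, 6 without gun1 2 and 3 without fug1 2, against 16 with all 6 libraries. Markers of root hairs differed among the same libraries, from a summed 19.4 CPM in gun1 1 to 129 CPM in gun1 3, and with the root hair level as a covariate 52 plastid genes were called, all higher.

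The same plastid genes were also scaled among themselves, an alternative chosen after seeing the data, which asks about the make-up of plastid RNA and leaves its amount aside. On that scale 5 genes were higher and 7 lower in fug1 (edgeR, adjusted over the 95 genes). The higher genes were rps16 (1.68 ± 0.36), rpl33 (1.15 ± 0.17), rpl22 (0.99 ± 0.22), ycf4 (0.85 ± 0.19) and rpoB (0.82 ± 0.20). The lower genes were atpI (-1.42 ± 0.31), psbN (-1.14 ± 0.28), psaA (-1.03 ± 0.23), psaB (-1.03 ± 0.27), rps14 (-1 ± 0.24), atpB (-0.86 ± 0.23) and psbH (-0.72 ± 0.16). Of the 16 plastid calls, 4 were kept. atpI and atpB encode subunits of the ATP synthase, and psbH a small photosystem II subunit. psbN, needed for photosystem II assembly, lies on the strand opposite to its neighbours psbT and psbH, and whether the counting used strand is not given in the sources used here.

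**Figure D3:**
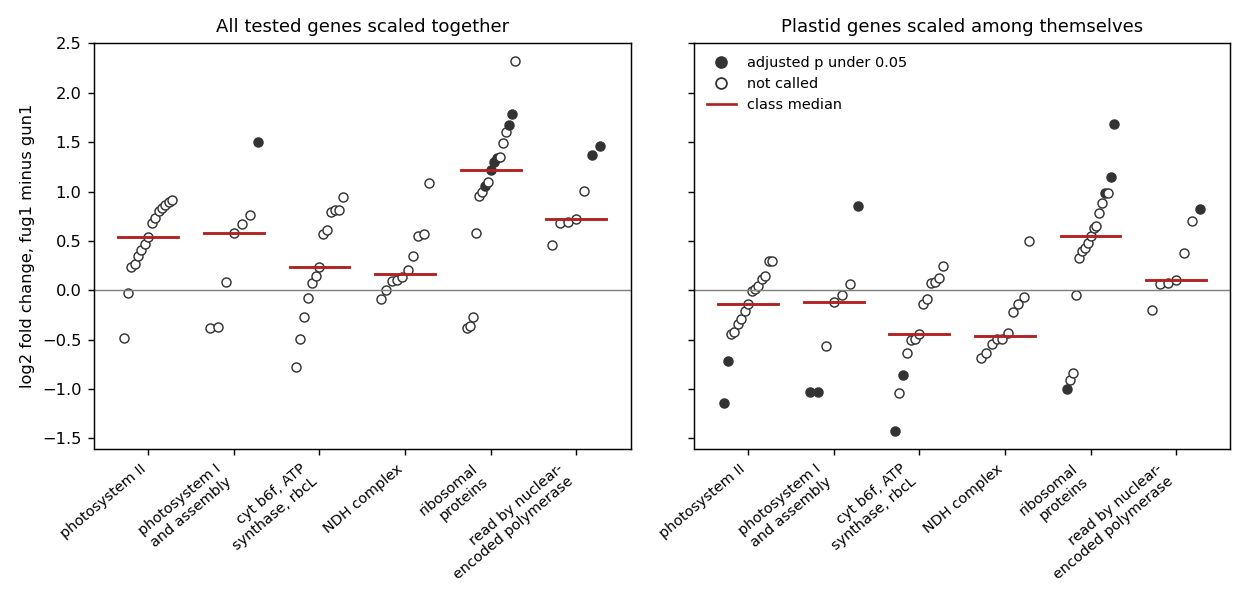
Log2 fold change (fug1 minus gun1) of each tested plastid-encoded gene named here, by group. All tested genes were scaled together (left), or plastid genes were scaled among themselves (right). Filled points passed an adjusted p of 0.05 and red lines are group medians. The ribosomal protein genes have the highest median in the left panel (1.22), and filled points lie both above and below 0 in the right panel.

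As shares of plastid counts, the summed groups of genes overlapped between the mutants. Genes read by the nuclear-encoded polymerase took 2.46 ± 0.876 of every 1000 plastid counts in gun1 and 2.45 ± 0.194 in fug1 (SD, n = 3). Ribosomal protein genes took 4.06 ± 2.35 and 3.64 ± 0.642, with gun1 1 at 6.75 above all other libraries. Photosystem I genes took 49.6, 23.4 and 19.6 per 1000 in gun1 and 14.5, 24.2 and 14.1 in fug1. In all 3 groups the libraries of the mutants overlapped, and gun1 1 was again the highest.

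Neighbouring plastid genes that are transcribed together had similar values in some clusters and not in others. In the cluster that runs from rps19 to rpoA (plastid genome positions 77901 to 84283, minus strand, TAIR10.1), all 9 tested genes had positive values, from 0.58 ± 0.22 in rpl16 to 1.67 in rpl22, and 6 of them were called. In psaA, psaB and rps14 the values were -0.37, -0.38 and -0.36. Elsewhere neighbours differed. In the cluster of rpoB, rpoC1 and rpoC2 the first gene had 1.46 and the others 0.72 and 0.69. ycf4 at 1.5 followed psaI at 0.58 ± 0.24, and petA, for cytochrome f, further on had -0.08 ± 0.57. Between ycf4 and petA by ID number, ATCG00530, not named here, had 1.04 ± 0.26 and was not called (edgeR adjusted p = 0.195). In the cluster from rps2 to atpA the values ran from -0.78 ± 0.46 in atpI to 0.81 ± 0.25 in atpH. psbH had -0.03 ± 0.27 beside psbB, psbT, petB and petD at 0.73 to 0.94. No difference between neighbours was tested. The clusters were drawn up after the values were seen.

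**Figure D4:**
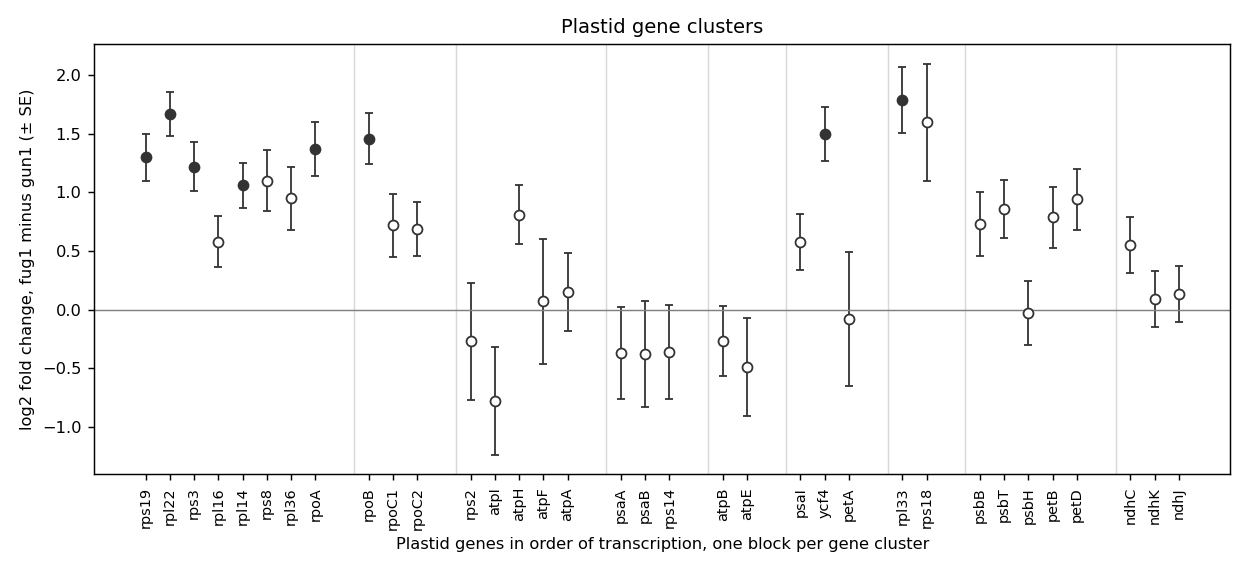
Log2 fold change (fug1 minus gun1) with SE for plastid genes named here, in the order of transcription, one block per gene cluster. Plastid IDs without a name here are not drawn. Filled points were called. The block from rps19 to rpoA lies wholly above 0 (0.58 to 1.67), while the block from rps2 to atpA spans -0.78 to 0.81.

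Among nuclear genes, SKIP5 had the largest change of all called genes and was nearly absent from gun1. SKIP5 (AT3G54480, chromosome 3 from 20170654 to 20173530, minus strand, 4 exons) encodes an F-box protein that binds SKP1-like proteins. It had 2, 1 and 1 counts in gun1 and 28, 19 and 48 in fug1. The summed counts of 4 and 95, over the scaled library sizes, give a ratio of 35.3 (95% exact counting interval 13.3 to 132, which covers counting error only), and the fitted log2 fold change was 4.97 ± 0.52 (edgeR adjusted p = 5.32e-05). The gene was chosen after its values were seen, kept its call whichever library was left out, and has no adjusted p in DESeq2.

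ICL, isocitrate lyase of the glyoxylate cycle, by which seedlings turn stored oil into sugar, rose in fug1. ICL (AT3G21720, chromosome 3 from 7652487 to 7656053) stood at 19.4, 32.8 and 28.8 CPM in gun1 and at 62.7, 47.2 and 64.2 CPM in fug1. The groups were apart by a gap smaller than the spread within fug1. The log2 fold change was 1.11 ± 0.21 (edgeR adjusted p = 0.0157). The call ended without gun1 2 (0.0607), fug1 1 (0.152), fug1 2 (0.0571) or fug1 3 (0.252), and with library totals as scaling (0.55, adjusted p = 0.0571). The other 17 genes of oil mobilisation and the glyoxylate cycle were not called. MLS, malate synthase, the partner enzyme of the cycle, had -0.21 ± 0.28, and the median over all 18 was -0.02.

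PGL5 and PDX1.1, both chosen after their values were seen, were also higher in fug1. PGL5 (AT5G24420, chromosome 5 from 8336534 to 8338032), annotated as a 6-phosphogluconolactonase of the oxidative pentose phosphate pathway, had 32, 22 and 23 counts in gun1 and 53, 45 and 42 in fug1. Its log2 fold change was 1.46 ± 0.28 (edgeR adjusted p = 0.0187). PDX1.1 (AT2G38230, chromosome 2 from 16011233 to 16012515), of vitamin B6 synthesis, stood at 13.5, 8.22 and 9.27 CPM against 17.3, 22.4 and 22 CPM, at 0.99 ± 0.21 (edgeR adjusted p = 0.0467). Of the 50-base windows of PDX1.1, 34% occur elsewhere in the genome, so its reads may be shared with another locus. Both calls ended without gun1 2, fug1 1 or fug1 2, and that of PDX1.1 also without fug1 3, at adjusted p of 0.0849 to 0.567. In limma-voom neither passed (adjusted p = 0.0631 for PGL5 and 0.0858 for PDX1.1), and PGL5 has no adjusted p in DESeq2. The call of PDX1.1 also ended with library totals as scaling (edgeR adjusted p = 0.179), with organelle genes left out (0.0989) and with the filter at 1 CPM and 50 mean counts (0.0812).

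A further 3 called loci lie beside the 18S ribosomal RNA gene of chromosome 3 and consist mostly of repeated sequence. AT3G06325, annotated as a non-coding RNA (14196558 to 14196865), had 393, 397 and 653 counts in gun1 and 1109, 1026 and 1217 in fug1. Its log2 fold change was 1.79 ± 0.22 (edgeR adjusted p = 0.00026), and it was called in every setting in which it was tested. AT3G41762 (14195447 to 14196865), which it overlaps on the other strand, had 1.22 ± 0.20, and AT3G06365 (14200215 to 14204208) had 1.36 ± 0.23 (edgeR adjusted p = 0.00441 and 0.00561). Of their 50-base windows, 80.7%, 75.5% and 89% occur elsewhere in the genome, so which copy the reads came from cannot be told apart. The 18S gene itself, AT3G41768 (14197677 to 14199484), had 2.45 ± 0.70 and was not called (adjusted p = 0.49). AT3G41762 lost its call without gun1 2 (0.151), fug1 1 (0.0609), fug1 2 (0.0702) or fug1 3 (0.069), and AT3G06365 without fug1 1 (0.0609) or fug1 2 (0.133). All 3 loci were chosen after their values were seen.

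The 3 genes that were lower in fug1 belong to the cell wall and to inositol metabolism. XTH9 (AT4G03210, chromosome 4 from 1415617 to 1417444), a xyloglucan endotransglucosylase/hydrolase that remodels the wall of growing cells, stood at 11.9, 10.3 and 10 CPM in gun1 and at 3.66, 3.59 and 5 CPM in fug1. The libraries of each group were close together, and the log2 fold change was -1.38 ± 0.22 (edgeR adjusted p = 0.00271). QUA1 (AT3G25140, chromosome 3 from 9154508 to 9157012), a glycosyltransferase of pectin synthesis needed for cell adhesion, fell from 10.6, 9.65 and 7.48 CPM to 2.82, 4.96 and 3.4 CPM, at -1.31 ± 0.24 (edgeR adjusted p = 0.0145). MIPS2 (AT2G22240, chromosome 2 from 9451605 to 9454300), a myo-inositol-1-phosphate synthase, had 115, 68 and 55 counts in gun1 and 14, 18 and 27 in fug1, at -1.44 ± 0.28 (edgeR adjusted p = 0.0262). QUA1 and MIPS2 overlap loci on the opposite strand, AT3G25150 and AT2G22230 with AT2G22241, and reads of these cannot be told apart without strand.

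Each of the 3 falls lost its call when single libraries were left out. For XTH9 these were fug1 1 (adjusted p = 0.0554) and fug1 2 (0.0702). For QUA1 they were gun1 2 (0.173), fug1 1 (0.195), fug1 2 (0.0571) and fug1 3 (0.252), and for MIPS2 all but gun1 3 (0.102 to 0.325). The call of MIPS2 also ended in limma-voom (adjusted p = 0.146) and with organelle genes left out (edgeR adjusted p = 0.0671).

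By edgeR and limma-voom, no nuclear gene list had a called member other than ICL in the oil list, beside GUN1 itself. DESeq2 also called FUG1 and RAB18 of the abscisic acid list, both lower. Of 38 nuclear genes for plastid ribosomal proteins none was called, 2 had an unadjusted p under 0.05 (edgeR), and 15 had positive and 23 negative values, with a median of -0.04. RPL19B, the member with the smallest p, stood at 11.5, 8.31 and 4.96 CPM in gun1 and 3.38, 5.95 and 4.8 CPM in fug1, at -0.81 ± 0.29 (edgeR adjusted p = 0.486). The groups overlapped. The nuclear ribosomal protein genes thus had a median near that of all genes, beside 1.22 for their plastid-encoded partners. Of 9 plastid translation factors other than FUG1, none was called, and the median was 0.05. IF1, another initiation factor and the 1 member with an unadjusted p under 0.05 (edgeR), had -1.35 ± 0.52 at 0.894 to 1.38 CPM in gun1 and 0.2 to 0.62 CPM in fug1. For the plastid transcription machinery (15 tested, median -0.05), plastid proteases (25, -0.05), plastid chaperones (10, -0.11) and plastid import (12, -0.01) the medians lay close to that of all genes, and 0, 0, 0 and 1 of these genes had an unadjusted p under 0.05 (edgeR).

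Photosynthesis genes of the nucleus were not called either. Of 20 light-harvesting genes, 19 had positive values, with a median of 0.27, and in 7 the fug1 libraries were all above the gun1 libraries, beside 6.74% of all genes. With library totals as scaling the median turned to -0.31, against -0.59 over all genes. LHB1B1 (AT2G34430), an antenna protein of photosystem II, had the smallest p of the list, with 516, 452 and 276 CPM in gun1 and 828, 639 and 568 CPM in fug1 (log2 fold change 0.71 ± 0.25, edgeR adjusted p = 0.458). Its reads may be shared with near-identical family members. It was the 1 gene of the list with an unadjusted p under 0.05 (edgeR). The medians were 0.07 for 29 genes of photosystems and electron transport, 0.21 for 16 genes of carbon fixation and 0.01 for 27 genes of tetrapyrrole synthesis, with 2, 0 and 2 genes at an unadjusted p under 0.05 (edgeR).

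Genes of glucosinolates, the defence compounds of the cabbage family, had a median of -0.39, with 14 of 19 tested genes negative and 6 lower at an unadjusted p under 0.05 (edgeR), but none was called. SOT17, a sulfotransferase of the last step of synthesis, had 26, 13 and 10 counts in gun1 and 1, 2 and 4 in fug1, at -2.19 ± 0.57 (edgeR adjusted p = 0.232). Every fug1 library was below every gun1 library in 6 genes of the list, among them SOT17, IPMI1 (-1.57 ± 0.49) and ESM1 (-0.74 ± 0.23), beside 7.36% of all genes. IPMI1 takes part in side-chain elongation, and ESM1 sets the products of glucosinolate breakdown. Apart from the seed storage and embryo genes (median -0.54), the other nuclear lists had medians between -0.35 (mitochondrial dysfunction response, 5 genes tested) and 0.37 (flavonoids and anthocyanins, 7 tested). RAB18, a dehydrin induced by abscisic acid, had -1.39 ± 0.45 (adjusted p = 0.49), and ZAT12 (AT5G59820), a zinc finger regulator of oxidative stress, had 1.08 ± 0.42 (adjusted p = 0.486).

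**Figure D5:**
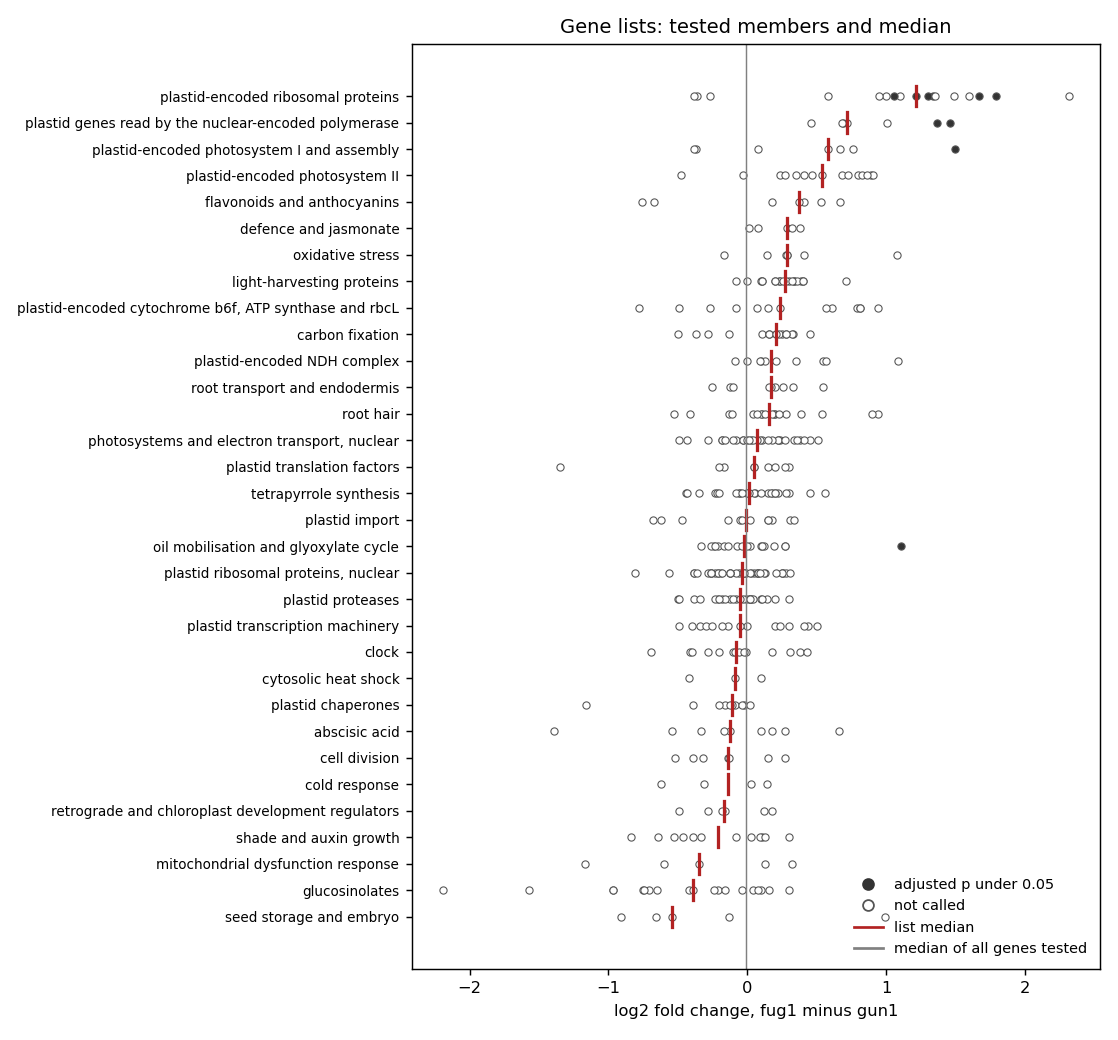
Log2 fold change (fug1 minus gun1) of the tested members of each gene list, sorted by the list's median (red), with the median of all genes tested as a grey line. Filled points were called. They occur in the plastid-encoded lists at the top and once in the oil and glyoxylate list (ICL).

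Markers of other organs and of seedling age were measured in the same libraries. Of 18 root hair genes and 9 tested genes of root transport and endodermis, none was called by edgeR, DESeq2 or limma-voom and none had an unadjusted p under 0.05 (edgeR), with medians of 0.16 and 0.17. The summed level of the root hair genes was 19.4, 51.6 and 129 CPM in gun1 and 87.1, 53.4 and 83.4 CPM in fug1. The fug1 libraries lay inside the range of gun1, which spread widely. Of 13 seed storage and embryo genes 5 were tested, none was called by any of these tools and 2 were lower at an unadjusted p under 0.05 (edgeR), with a median of -0.54 and summed levels of 42.1 to 85.4 CPM in gun1 and 38 to 61.2 CPM in fug1. OLEO2, an oleosin of seed oil bodies, had 26.3 ± 7.88 CPM in gun1 and 16.6 ± 0.678 CPM in fug1 (SD, n = 3; -0.66 ± 0.21, edgeR adjusted p = 0.408). Of 15 cell division genes 7 were tested, with a median of -0.14, none called and none at an unadjusted p under 0.05 (edgeR). With the root hair level as a covariate 82 genes were called higher and 19 lower, and all 27 called genes kept their calls.

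RR3 (AT2G41310), a cytokinin response regulator whose locus overlaps AT2G09250, was among the 5 genes with most counts, beside psbA, rbcL, psbC and psbB. It stood at 4800, 8210 and 14935 CPM in gun1 and at 12626, 16203 and 7144 CPM in fug1 (libraries 1, 2 and 3), and the groups overlapped. Its log2 fold change was -0.15 ± 0.32 (edgeR adjusted p = 0.931), and the sign turned without gun1 2 (0.07) and without fug1 2 (0.08).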

How the data were processed

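RNA was sequenced from gun1 and fug1 seedlings, 3 libraries each. The deposited tables hold raw counts of reads per gene, which the authors made with Trimmomatic, FastQC, TopHat2 2.1.1 and featureCounts on build TAIR10, per the submitters' processing notes. The annotation version, strandedness and treatment of reads with several matches are not given in the sources used here. Groups come from the genotype labels. Of the 36917 IDs, 36632 took symbols and positions from the TAIR10.1 annotation. The 133 plastid and 152 mitochondrial IDs are not in it by ID, and 74 plastid genes were named from a hand-written list whose symbols all match its plastid genes.

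The 6 libraries were fitted alone with edgeR 4.0.16 in R 4.3.3 (filterByExpr by genotype, TMM, robust quasi-likelihood F test, genotype as factor). Calls rest on an adjusted p under 0.05 (Benjamini-Hochberg, 12893 genes tested), and every adjusted p with no other tool named is from edgeR. The SE of an edgeR log2 fold change is its size divided by the square root of the F statistic. Similar ratios of change to SE can therefore go with different p-values. Log2 levels use a prior count of 2. CPM refer to the TMM-scaled library size. For organelle shares an exact permutation test over samples (two-sided) was used. Gene lists are described by counts and medians. The comparison, the gene lists and the naming rule were chosen with earlier results of these data known.

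Named genes are GUN1 and FUG1, the 10 called genes with the largest rise and the 10 with the largest fall (only those with a symbol, non-overlapping groups and 50 counts or more on average in the higher group), the 3 members with the smallest p of each list with a call and 1 of every other list, called genes with at most 2 counts in every library of one mutant and at least 20 in every library of the other (SKIP5 missed this in 1 library), and the 5 genes with most counts. 1 gene that this rule names is not reported here, in text or figures. Genes named outside this rule, neighbours in plastid clusters among them, were picked with their values in view. The alternatives changed the scaling (RLE or upper-quartile factors, library totals), added a replicate block, or used the nuclear genes alone, DESeq2 1.42.0, limma-voom (limma 3.58.1), no filter, a filter at 1 CPM in 3 libraries with 50 mean counts, an adjusted p under 0.01, all 12 or 11 libraries in the fit, the root hair level as covariate, each library left out and, chosen after seeing the data, plastid genes alone. The procedure was also run on simulated counts drawn with the fitted dispersions. These held as many rises as falls and no shift in plastid share, so they do not test the scaling under such a shift. Repeated sequence is the share of a locus's 50-base windows found elsewhere in TAIR10.1. Tables were joined in Python 3.11.15 (numpy 2.4.6, scipy 1.17.1), and figures drawn with matplotlib 3.10.9.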

Additional observations from a re-analysis of the deposited data

How the results depend on the processing

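Directions held for the called genes, turned for some others (below), and numbers of calls moved. All 27 called genes kept their sign in every alternative in which they were tested, and GUN1 and AT3G06325 were called in all of theirs. These genes were picked as called in the same 6 libraries, so a kept sign is no independent support. With 24 higher and 3 lower genes as reported, other settings gave 42 and 16 with the replicate block (all 27 calls kept), 41 and 6 in DESeq2 (25 kept), 25 and 2 in limma-voom (24 kept), 51 and 26 without a filter, 82 and 19 with the root hair level as covariate, 20 and 3283 with library totals (23 kept), and 7 and 2 with organelle genes left out (9 of the 11 nuclear calls kept). The fit of 11 libraries gave 5 lower genes and an adjusted p under 0.01 left 1. All 12 libraries together gave 3 and 1, and 4 of the calls were kept (GUN1, SKIP5, AT3G06325 and XTH9). That fit adds the wild type and the double mutant, among them a library, gun1 fug1 3, that the fit of 11 leaves out (20 higher genes, 22 calls kept). The cause of these differences was not tested.

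Leaving out 1 library gave 6 to 56 higher and 0 to 35 lower genes: 48 and 4 without gun1 1, 10 and 1 without gun1 2, 56 and 35 without gun1 3, 15 and 0 without fug1 1, 6 and 0 without fug1 2, and 17 and 1 without fug1 3. Without fug1 1 or fug1 2, edgeR was the only tool run, and 930 and 895 genes had an unadjusted p under 0.05. RR3 ran from -0.56 to 0.08. The plastid share differed by 6.22 to 7.6 points and the mitochondrial share by -0.108 to -0.0534 points.

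With library totals the sign turned for PSAF (-0.07), PPOX (AT4G01690; -0.02), TRX z (-0.05), ZTL (-0.15), LOX2 (-0.20), ACX2 (-0.30), SCR (-0.25), ndhC (-0.04) and rbcL (-0.01), by construction of the shift in the median. With plastid genes alone, an alternative added after seeing the data, it turned for psaJ (-0.05), ndhC (-0.07) and rbcL (-0.14). None of these was called in the reported fit or in the fit that turned it.

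Whether the replicate numbers pair the libraries cannot be told from the levels alone. Same-numbered libraries deviated from their group means with correlations of -0.05, 0 and 0.16. Differently numbered libraries of the 2 mutants did so with -0.15 to 0.15. Under the replicate block the differences in plastid and mitochondrial share stayed 7.08 and -0.0875 points, with an exact sign-flip p of 0.25, the smallest that 3 pairs can give.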

Other observations

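Some genes that missed the threshold are given here as a description, chosen after their values were seen. BGLU19 (AT3G21370), a beta glucosidase whose locus overlaps AT3G21360, had 118, 71 and 117 counts in gun1 and 32, 31 and 37 in fug1, at a log2 fold change of -1.03 ± 0.23 (edgeR adjusted p = 0.0927). AT1G05510, which overlaps AT1G05520, had 24, 22 and 29 counts against 4, 1 and 6, at -2.18 ± 0.48 (adjusted p = 0.0738). Both groups of libraries were apart in these loci.

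SAR1B (AT1G56330), a small GTPase of the secretory pathway, stood nearest to the threshold, with 11.7, 10 and 9.02 CPM in gun1 and 5.07, 5.21 and 5.6 CPM in fug1 (-0.95 ± 0.21, edgeR adjusted p = 0.0714). AT5G11250, annotated as a TIR-NBS-LRR disease resistance gene, had 23, 20 and 17 counts in gun1 and 3, 3 and 2 in fug1, at -2.29 ± 0.50 (adjusted p = 0.0714). CWLP (AT3G22120) was higher in fug1 at 1.29 ± 0.29 (adjusted p = 0.0927), and it overlaps AT3G22121, whose counts were nearly the same.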
